A study of Homo sapiens with 4 samples.

Results

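Cholesterol and fatty acid synthesis was followed here through 32 genes, chosen by symbol and by their role: 7 enzymes of the mevalonate pathway, 11 enzymes of the sterol branch that follows it, 5 genes that control the SREBP transcription factors, 7 enzymes that make and modify fatty acids, the sterol transfer protein gene STARD4 and the phosphatidate phosphatase gene LPIN1. They are 32 of the 27011 genes in the count table, and all 32 are among the 10978 genes that were tested. The list does not hold every gene of these pathways. It was chosen with earlier results of these data known, so its shares against all genes tested are descriptive. RNA was sequenced from HEK293T cells, a human embryonic kidney line that carries the SV40 large T antigen, in 2 WT and 2 Helz-null libraries. The Helz-null line was made from HEK293T cells by CRISPR-Cas9 editing with a guide to exon 8 of HELZ, which left a deletion that shifts the reading frame. HELZ encodes a putative RNA helicase with a zinc finger that binds the CCR4-NOT deadenylase. Cells of both genotypes were untreated and were harvested 24 h after plating on 15 cm dishes. The study calls the libraries of a genotype biological replicates and describes 1 Helz-null line, and the sources do not say whether it is a single clone. The p-values therefore measure the spread between cultures of these lines. Loss of HELZ and any other difference between the lines cannot be told apart.

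Cholesterol is built from acetyl-CoA through mevalonate and farnesyl diphosphate to squalene, which is closed into lanosterol and then trimmed to cholesterol, while long-chain fatty acids are built from malonyl-CoA and then elongated and desaturated. The genes of both routes are switched on by SREBP-2 and SREBP-1, membrane proteins that SCAP carries from the endoplasmic reticulum to the Golgi for cleavage when sterols are low, and that INSIG proteins hold back when sterols are high. INSIG1 and SREBF2 are themselves targets of this pathway.

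The libraries held between 41745401 and 70464140 counts, of which 0.517% to 0.561% fell in the 32 genes. HELZ itself was measured at 99.8 and 103.9 CPM (counts relative to the sum over the tested genes, corrected with TMM factors) in WT and at 36.98 and 37.9 CPM in Helz-null cells (log2FC −1.44, SE 0.042, FDR 2.13e-27 by the edgeR quasi-likelihood test with Benjamini-Hochberg adjustment, n = 2 per group). Genes were called up- or down-regulated at an FDR under 0.005 in that test, which is behind every FDR given here unless DESeq2 is named, and log2FC is Helz-null relative to WT. The 2 WT libraries differed beyond counting noise, with a chi-square of 4.16 per degree of freedom, as did the 2 Helz-null libraries, at 3.01. The sources do not say whether both mates of a read pair were counted, and with counts divided by 2 these values are 2.08 and 1.51. All 7 markers of the HEK293T lineage had counts in every library, and their sum, relative to the library total without TMM factors as for all marker sums, was 571 to 576 CPM in WT and 736 to 739.9 CPM in Helz-null cells. NEFM rose (log2FC 0.89), INA fell (log2FC −1.05), EYA1 fell (log2FC −0.55), NEFL (log2FC −0.04) and LIN28B (log2FC −0.06) were not called, and PAX2 and LHX1 were not tested. Of 12 markers of other cell types, 3 had counts in every library and TTR and DCN were at 0 in all 4, and their sum was 21.9 to 22.7 CPM in WT and 22.1 to 23.0 CPM in Helz-null cells, at most 1.44 CPM of it from genes other than PPARG. The part of these marker differences in the results was not tested. In these bulk libraries a change in the share of cells that express a gene and a change in RNA per cell cannot be told apart.

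Helz-null cells had more mRNA of 4 of the 7 mevalonate pathway genes, of FDFT1, SQLE and LSS, and of INSIG1 and SREBF2, and less of SREBF1, MSMO1, SCAP and FASN. Of the 32 genes, 14 were up-regulated (43.75%) and 4 were down-regulated (12.5%), against 13.9% up-regulated and 15.5% down-regulated among all 10978 genes tested, of which 29.4% were called in either direction. The differences were small: log2FC ran from −0.65 to 0.49, the median over the 32 genes was 0.11 against −0.00091 over all genes tested, and no gene of the list changed 2-fold. The Helz-null libraries lay above both WT libraries for 19 genes (34.9% of all genes tested) and below both for 9 (35.7% of all genes tested), so that 87.5% of the list did not overlap between genotypes, against 70.6% of all genes tested. With 1 library left out, 10 to 13 genes of the list were up-regulated, and 2 were down-regulated without Helz-null replicate 1 or Helz-null replicate 2 and 6 without WT replicate 1, while 1027 to 1544 of all genes were up- and 1180 to 1659 down-regulated in these refits. Scaling by library size alone called 18 up- and 2 down-regulated genes of the list, and 2109 up- and 1318 down-regulated genes in all, in place of 1524 and 1701. Tested against a fold change of at least 1.2, INSIG1, SQLE and MSMO1 were the 3 genes of the list still called.

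**Figure D1:**
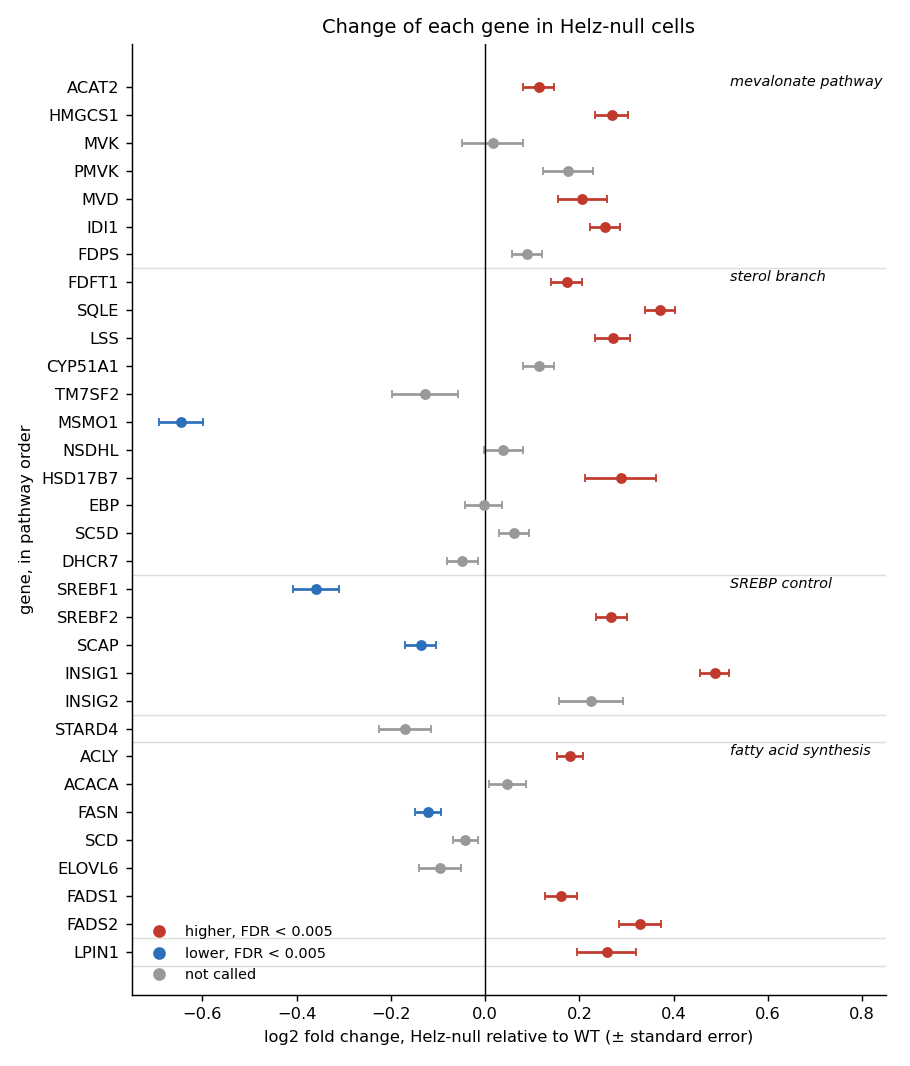
Log2 fold change of each of the 32 genes in Helz-null relative to WT cells, in pathway order, with bars of 1 standard error and colours for the call at an FDR under 0.005. The 7 mevalonate pathway genes lie above 0, whereas the sterol branch runs from −0.65 (MSMO1) to 0.37 (SQLE).

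**Figure D2:**
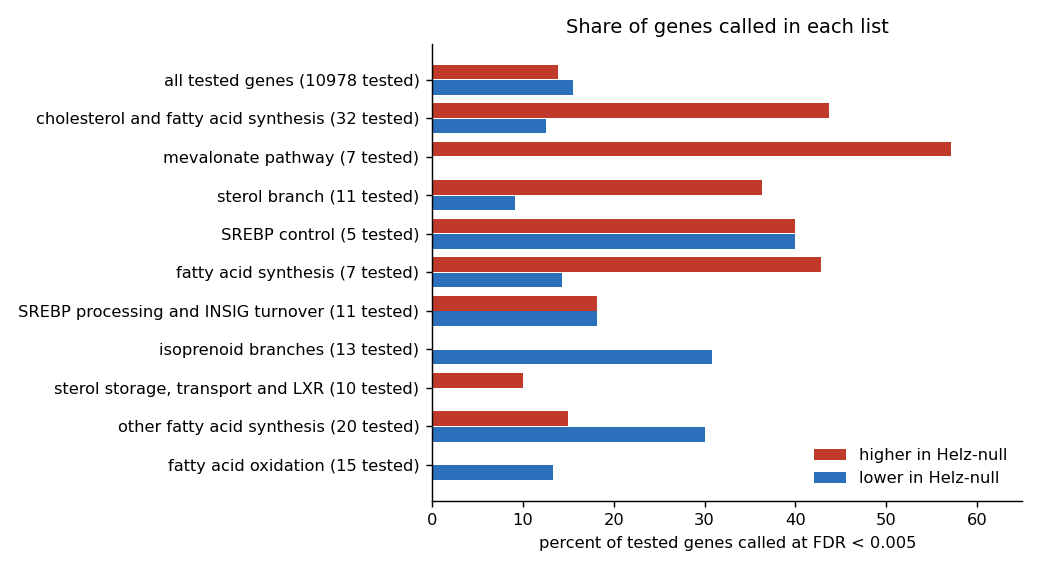
Percent of tested genes called (FDR under 0.005) as higher or lower in Helz-null cells, for all genes tested, the 32 genes, their groups and 5 lists of related genes. The 32 genes show 43.75% higher and 12.5% lower, and the isoprenoid branches show 30.8% lower.

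In the mevalonate pathway, which makes the isoprene units of all sterols, all 7 genes had a log2FC above 0, as did 5455 of the 10978 genes tested, and 4 were up-regulated (57.1%, against 13.9% of all genes tested), with a median log2FC of 0.18. HMGCS1 encodes the cytosolic synthase that makes HMG-CoA, and its level was 108.7 and 103 CPM in WT and 129 and 127 CPM in Helz-null cells. Both Helz-null libraries exceeded both WT libraries, by 20.5% on average (log2FC 0.27, SE 0.035, FDR 3.84e-08). IDI1, the isomerase that interconverts the isoprene units, was measured at 162 and 155 CPM in WT and at 191 and 188 CPM in Helz-null cells. Its increase of 19.2% was of the same order as that of HMGCS1 (log2FC 0.25, SE 0.032, FDR 1.72e-08). IDI1 shares 15.0% of its annotated exon bases with IDI2-AS1 on the opposite strand. MVD, which decarboxylates mevalonate diphosphate, rose by 15.4%, from 34.7 and 33.4 CPM to 39.9 and 38.9 CPM (log2FC 0.21, SE 0.053, FDR 0.00146). Without WT replicate 2, Helz-null replicate 1 or Helz-null replicate 2 its FDR in the edgeR fit was 0.00897, 0.0193 and 0.00823, and in DESeq2 it was 0.00879. ACAT2, the thiolase at the entry to the pathway, had the smallest increase of a called gene, from 156 and 149 CPM to 166 and 165 CPM (log2FC 0.11, SE 0.032, FDR 0.00416), and the call was lost when any 1 of 3 libraries was left out (FDR 0.038 without WT replicate 2, 0.0419 without Helz-null replicate 1 and 0.0307 without Helz-null replicate 2). ACAT2 was also not called in DESeq2 (FDR 0.0132), with edgeR's own expression filter (FDR 0.00772) and with no filter (FDR 0.00538). In the annotation 454 of its 2639 annotated exon bases are shared with TCP1 and 133 with SOD2, both on the opposite strand. The study does not state whether the counting used strand. TCP1 had a log2FC of 0.02 (FDR 0.522), and SOD2 was down-regulated (log2FC −0.17, FDR 2.47e-05).

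The other 3 mevalonate pathway genes did not pass the threshold, although PMVK did under scaling by library size (FDR 0.00112), upper-quartile scaling (FDR 0.00296) and the replicate block (FDR 0.00308), and FDPS under scaling by library size (FDR 0.00154). The kinase gene PMVK was at 34.7 and 35.3 CPM in WT and at 40.7 and 38.5 CPM in Helz-null cells (log2FC 0.18, FDR 0.00642). FDPS, which makes farnesyl diphosphate, was at 160.3 and 155 CPM in WT and at 166 and 169 CPM in Helz-null cells (log2FC 0.09, FDR 0.0216), and shares 18.6% of its annotated exon bases with RUSC1-AS1 on the opposite strand. For both genes the genotypes did not overlap. MVK, the kinase of mevalonate, was the 1 gene of the pathway whose libraries overlapped, at 24.1 and 24.1 CPM in WT and 25.4 and 23.5 CPM in Helz-null cells (log2FC 0.02, FDR 0.868, and a log2FC of −0.0348 without Helz-null replicate 1). Summed over the 7 genes, the level was 681 and 655 CPM in WT and 758 and 750.2 CPM in Helz-null cells, a difference of 12.8%.

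The first enzymes of the sterol branch, which commit farnesyl diphosphate to sterols, were up-regulated. Of the 11 genes of this branch 4 were up-regulated (36.4%, against 13.9% of all genes tested) and 1 was down-regulated (9.09%, against 15.5%), and the median log2FC was 0.06. SQLE, the squalene epoxidase, was at 143 and 144 CPM in WT and at 182 and 189 CPM in Helz-null cells. This difference of 29.4% was many times the gap between replicates of either genotype (log2FC 0.37, SE 0.032, FDR 1.35e-12). LSS, which closes the epoxide into lanosterol, was at 90.2 and 84.6 CPM in WT and at 106 and 105 CPM in Helz-null cells (log2FC 0.27, SE 0.037, FDR 1.11e-07). FDFT1, the squalene synthase ahead of both, was at 135 and 132 CPM in WT and at 148 and 153 CPM in Helz-null cells (log2FC 0.17, SE 0.033, FDR 3.53e-05, and FDR 0.0065 without Helz-null replicate 2). All 3 genes thus rose, and in each the lowest Helz-null library lay above the highest WT library.

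The enzymes that trim lanosterol did not move together. MSMO1, the sterol C4-methyl oxidase, was the gene of the list with the largest absolute log2FC, at 58.3 and 58.4 CPM in WT and 37.4 and 37.2 CPM in Helz-null cells. Replicates of both genotypes were close to identical, and the level fell by 36.1% (log2FC −0.65, SE 0.047, FDR 1.49e-14). HSD17B7, the ketoreductase of the same demethylation, was up-regulated from 15.7 and 14.8 CPM to 18.1 and 19.1 CPM (log2FC 0.29, SE 0.075, FDR 0.00183). This call was lost without WT replicate 2 (FDR 0.0132), without Helz-null replicate 2 (FDR 0.0535) and in DESeq2 (FDR 0.0130). The counts of its pseudogene HSD17B7P2, 378 over the 4 libraries, equal 10.3% of the 3675 counts of HSD17B7, and the authors' counting could have split reads between them. NSDHL, the dehydrogenase that acts between these enzymes, was at 67.7 and 64.4 CPM in WT and at 69.4 and 66.7 CPM in Helz-null cells (log2FC 0.04, FDR 0.481). In FPKM, which divides by gene length, the ratio of MSMO1 to NSDHL was 0.631 and 0.664 in WT and 0.394 and 0.408 in Helz-null cells. The same ratio for HSD17B7 to NSDHL was 0.217 and 0.213 in WT and 0.243 and 0.268 in Helz-null cells. The 5 nearest tested genes on each side had a median log2FC of −0.61 around MSMO1, 0.19 around HSD17B7 and −0.07 around NSDHL. This measure was chosen after seeing the data.

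The other 6 genes of the branch, NSDHL included, were not called. CYP51A1, the lanosterol 14-demethylase, came closest, at 155 and 167 CPM in WT and 174 and 174 CPM in Helz-null cells (log2FC 0.11, FDR 0.0051). It was called up-regulated in 8 of 15 refits, with an FDR of 9.36e-06 without WT replicate 2, and not in the other 7, with an FDR of 0.168 without WT replicate 1. TM7SF2, a sterol C14 reductase, was at 19.7 and 21.4 CPM in WT and at 18.6 and 18.8 CPM in Helz-null cells (log2FC −0.13, FDR 0.14). The last enzymes of the route, EBP, SC5D and DHCR7, had log2FC values of −0.0035, 0.06 and −0.05, with FDR values of 0.951, 0.122 and 0.244. The level over all 11 genes was 1048 and 1047 CPM in WT and 1119 and 1125 CPM in Helz-null cells, a difference of 7.15%.

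**Figure D3:**
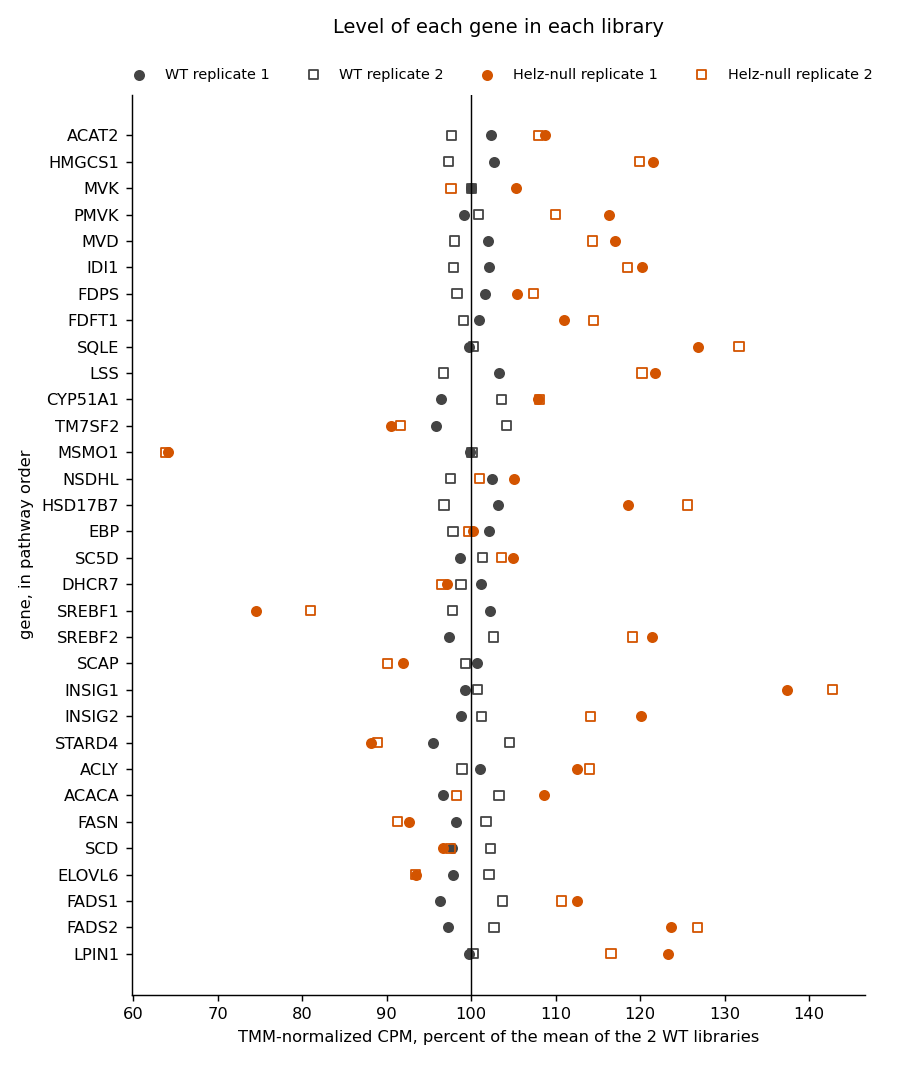
TMM-normalized CPM of each gene in each of the 4 libraries, as percent of the mean of the 2 WT libraries (vertical line at 100), with filled circles for replicate 1 and open squares for replicate 2. INSIG1 and SQLE are farthest to the right and MSMO1 and SREBF1 farthest to the left, with the Helz-null libraries of SREBF1 apart by 0.12 on the log2 scale.

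The 5 genes of SREBP control moved in both directions, with 2 up-regulated and 2 down-regulated, against 13.9% and 15.5% of all genes tested, and 1 not called. INSIG1, which retains SCAP in the endoplasmic reticulum, had the largest increase of the list, from 192 and 195 CPM in WT to 265 and 276 CPM in Helz-null cells. The increase of 40.2% far exceeded the gap between replicates (log2FC 0.49, SE 0.030, FDR 1.16e-16). Its paralog INSIG2 was far less abundant, at 19.0 and 19.5 CPM in WT and 23.1 and 21.9 CPM in Helz-null cells, with genotypes that did not overlap but an FDR above the threshold (log2FC 0.23, FDR 0.00654). INSIG2 was called under scaling by library size (FDR 0.00171), upper-quartile scaling (FDR 0.00364) and the replicate block (FDR 0.0043). SCAP, the escort of both SREBPs, was down-regulated from 135 and 133 CPM to 123 and 121 CPM (log2FC −0.14, SE 0.033, FDR 0.00087). The FDR of SCAP was 0.00543 without Helz-null replicate 1, 0.0365 without Helz-null replicate 2 and 0.00941 with scaling by library size alone. The FPKM ratio of INSIG1 to SCAP was 1.97 and 2.02 in WT and 2.98 and 3.16 in Helz-null cells.

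The 2 SREBP genes moved in opposite directions. SREBF2, whose product mainly drives sterol genes, was at 143 and 151 CPM in WT and at 178 and 175 CPM in Helz-null cells, an increase of 20.4% (log2FC 0.27, SE 0.033, FDR 9.87e-09). SREBF1, whose product mainly drives fatty acid genes, was at 56.7 and 54.2 CPM in WT and at 41.3 and 44.9 CPM in Helz-null cells, and fell by 22.1% (log2FC −0.36, SE 0.049, FDR 9.41e-08). Neither gene's libraries overlapped between genotypes. Per length, SREBF2 stood at 2.20 and 2.43 times SREBF1 in WT and at 3.77 and 3.40 times in Helz-null cells. The counts are per gene, so the SREBP-1a and SREBP-1c transcripts of SREBF1 were not separated. SREBF1 shares 6.75% of its annotated exon bases with RAI1 on the opposite strand, which had a log2FC of 0.04 (FDR 0.484).

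The promoters of 4 up-regulated genes are printed to show the letters that sterol-responsive promoters are known for, namely a sterol regulatory element (SRE) to which SREBP binds and CCAAT boxes to which NF-Y binds. Each is the 250 bases before a RefSeq gene start on GRCh38.p14, read 5′ to 3′ on the strand of the gene. For genes with several starts, the window with the most matches is shown. Capitals mark matches on either strand to TCACNCCAC (SRE), CCAAT or CACGTG (E-box).
HMGCS1: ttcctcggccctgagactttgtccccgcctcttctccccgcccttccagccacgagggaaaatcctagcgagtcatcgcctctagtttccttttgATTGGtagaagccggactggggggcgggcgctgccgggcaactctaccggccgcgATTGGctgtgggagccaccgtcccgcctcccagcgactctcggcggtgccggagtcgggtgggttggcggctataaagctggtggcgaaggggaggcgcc
IDI1: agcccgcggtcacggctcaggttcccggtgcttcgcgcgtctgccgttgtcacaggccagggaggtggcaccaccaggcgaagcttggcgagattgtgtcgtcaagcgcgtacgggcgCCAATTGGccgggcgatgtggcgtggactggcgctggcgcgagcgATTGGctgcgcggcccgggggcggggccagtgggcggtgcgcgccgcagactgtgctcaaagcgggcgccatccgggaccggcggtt
INSIG1: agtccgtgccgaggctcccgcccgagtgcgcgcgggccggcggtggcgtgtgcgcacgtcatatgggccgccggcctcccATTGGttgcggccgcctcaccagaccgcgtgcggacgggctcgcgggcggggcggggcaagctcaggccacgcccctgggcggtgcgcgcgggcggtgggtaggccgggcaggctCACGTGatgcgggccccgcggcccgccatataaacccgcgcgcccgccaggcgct
SREBF2: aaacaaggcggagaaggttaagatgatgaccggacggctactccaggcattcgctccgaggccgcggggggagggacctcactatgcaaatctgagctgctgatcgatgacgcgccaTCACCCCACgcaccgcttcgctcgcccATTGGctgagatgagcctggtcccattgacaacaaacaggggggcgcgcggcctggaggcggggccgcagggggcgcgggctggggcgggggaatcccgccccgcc
The HMGCS1 window is chr5:43313413-43313662 on the minus strand, the IDI1 window chr10:1048887-1049136 on the minus strand, the INSIG1 window chr7:155297628-155297877 on the plus strand and the SREBF2 window chr22:41832855-41833104 on the plus strand. SREBF2 was the 1 gene of the 28 with a RefSeq promoter that held the SRE letters, 133 to 125 bases before the start, and 0.883% of 35116 promoter windows of this length and 0.809% of windows of tested genes held them. CCAAT was found in 57.5% of the 40 windows of the list, in 32.0% of all windows and in 33.6% of windows of tested genes. The GC box GGGCGG, not capitalised, was found in 87.5% of the windows of the list, in 42.6% of all windows and in 65.7% of windows of tested genes. CACGTG was in 4 of the 40 windows of the list, of INSIG1, SC5D and SCAP, in 6.34% of all windows and in 8.53% of windows of tested genes. Genes that did not rise held them too, and the MSMO1 promoter held 4 CCAAT matches. A match is a match of letters, and no binding was measured.

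Of the 7 genes of fatty acid synthesis 3 were up-regulated (42.9%, against 13.9% of all genes tested), 1 was down-regulated (14.3%, against 15.5%) and 3 were not called, with a median log2FC of 0.05. ACLY, which makes cytosolic acetyl-CoA from citrate and so feeds both routes, was at 741 and 725 CPM in WT and at 825 and 836 CPM in Helz-null cells (log2FC 0.18, SE 0.027, FDR 5.65e-07). FASN, the synthase of palmitate, was at 772 and 799 CPM in WT and at 728 and 717 CPM in Helz-null cells (log2FC −0.12, SE 0.027, FDR 0.000358). The FDR of FASN was 0.00809 without Helz-null replicate 1, 0.0339 without Helz-null replicate 2 and 0.00696 with scaling by library size alone. ACLY rose by 13.3% and FASN fell by 8.04%, and the FPKM ratio of ACLY to FASN was 1.86 and 1.76 in WT and 2.19 and 2.26 in Helz-null cells. ACACA, which makes malonyl-CoA between these 2 enzymes, was at 112 and 119 CPM in WT and at 125 and 114 CPM in Helz-null cells, and the libraries overlapped (log2FC 0.05, FDR 0.347, and a log2FC of −0.0226 without Helz-null replicate 1).

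FADS2 and FADS1, the desaturases of polyunsaturated fatty acids in the list, rose. FADS2, the delta-6 desaturase, was at 52.5 and 55.4 CPM in WT and at 66.7 and 68.4 CPM in Helz-null cells, an increase of 25.6% (log2FC 0.33, SE 0.044, FDR 6.26e-08). FADS1, the delta-5 desaturase, was at 128 and 137 CPM in WT and at 149 and 147 CPM in Helz-null cells (log2FC 0.16, SE 0.035, FDR 0.000213, and FDR 0.0136 without WT replicate 1). The genes are neighbours on opposite strands and share 4.79% of the exon bases of FADS1. Around both, the 5 nearest tested genes on each side had a median log2FC of 0.145, a measure chosen after seeing the data. SCD, which puts the first double bond into saturated fatty acids, was at 1159.7 and 1215 CPM in WT and at 1148 and 1158 CPM in Helz-null cells (log2FC −0.04, FDR 0.206, and FDR 0.00383 without WT replicate 1). The elongase gene ELOVL6 was at 57.9 and 60.4 CPM in WT and at 55.3 and 55.2 CPM in Helz-null cells (log2FC −0.10, FDR 0.0755). Neither SCD nor ELOVL6 passed the test. The sum over the 7 genes was 3022 and 3111 CPM in WT and 3096 and 3094 CPM in Helz-null cells, a difference of 0.934%.

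LPIN1, a phosphatidate phosphatase that acts in triglyceride synthesis and a known SREBP target, was up-regulated from 22.8 and 22.9 CPM to 28.2 and 26.6 CPM (log2FC 0.26, SE 0.063, FDR 0.000886). Its FDR was 0.0223 without Helz-null replicate 1 and 0.00586 in DESeq2. STARD4, a cytosolic sterol transfer protein, was at 36.3 and 39.8 CPM in WT and at 33.5 and 33.8 CPM in Helz-null cells (log2FC −0.17, FDR 0.0106, and FDR 0.000999 without WT replicate 1). With the replicate block STARD4 was called down-regulated. Its WT libraries lay farther apart than those of any other gene of the list, by 0.13 on the log2 scale. The sum over all 32 genes was 5355 and 5429 CPM in WT and 5667 and 5668 CPM in Helz-null cells, 5.11% higher. SCD, FASN and ACLY were the genes of the list with the most CPM, and of them ACLY rose, FASN fell and SCD was not called. Without SCD, FASN and ACLY, the sum over the other 29 genes was 2683 and 2690 CPM in WT and 2967 and 2958 CPM in Helz-null cells, 10.3% higher.

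Per gene length, SCD and ACLY were the most abundant of the 32 genes in WT, while the fatty acid enzymes ACACA, FADS2, ELOVL6 and FADS1 ranked 28, 24, 23 and 15. The mean WT level was 217.1 FPKM for SCD and 167.7 FPKM for ACLY, followed by FDPS (95.7 FPKM), FASN (92.9 FPKM) and ACAT2 (80.03 FPKM). The lowest were INSIG2 (6.93 FPKM), STARD4 (6.82 FPKM) and LPIN1 (3.54 FPKM). The median of the list was 26.6 FPKM against 12.9 FPKM over all genes tested. Of the 31 neighbouring pairs in the WT order, 8 overlapped between the WT libraries, among them FDPS and FASN, DHCR7 and CYP51A1, and INSIG2 and STARD4. In Helz-null cells the order shifted by 2 ranks or more for 12 genes. MSMO1 moved most, from rank 17 to rank 23, with mean levels of 26.2 FPKM in WT and 16.8 FPKM in Helz-null cells, and INSIG1 went from rank 7 to rank 4, with 62.7 FPKM in WT and 87.9 FPKM in Helz-null cells.

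**Figure D4:**
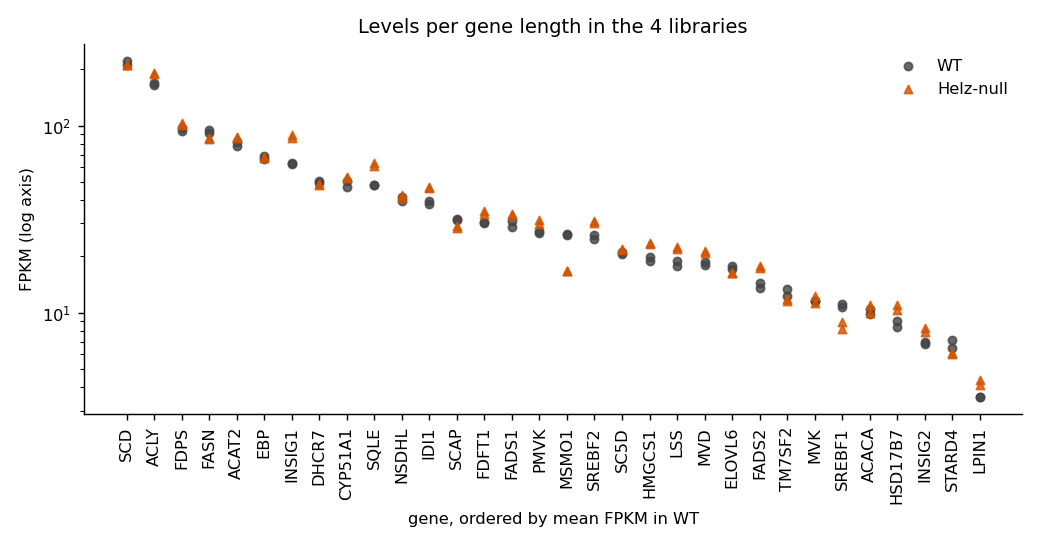
Level per gene length (FPKM, log axis) of the 32 genes in the 2 WT (circles) and 2 Helz-null (triangles) libraries, ordered by the WT mean. The levels span from 217.1 FPKM (SCD) to 3.54 FPKM (LPIN1) in WT, and MSMO1 is the gene whose Helz-null points drop farthest below its WT points.

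MSMO1, SCAP and INSIG1 lie in stretches of chromosome where most tested genes moved the same way, as shown in the plot of neighbouring genes. Of the 32 genes, 9.38% had a median log2FC of 0.1 or more in absolute value among up to 20 tested genes on each side, and of the 10379 tested genes placed on GRCh37, 9.33% did. MSMO1 is at chr4:166248819-166264316 on the plus strand, and 38 of its 40 neighbours had a log2FC below 0, with a median of −0.41. The log2FC of MSMO1 minus that median was −0.24, and minus the median of the 5 nearest on each side, −0.61, it was −0.03. SCAP is at chr3:47455171-47518616 on the minus strand, and 40 of 40 neighbours were below 0, with a median of −0.27. SCAP fell by less than they did, and its log2FC minus their median was 0.13. INSIG1 is at chr7:155089486-155101945 on the plus strand, and 28 of its 29 neighbours were above 0, with a median of 0.30. Relative to the neighbours INSIG1 was still higher by 0.19. Around SREBF2, 26 of 40 neighbours were below 0, with a median of −0.07, and SREBF2 exceeded that median by 0.34. The log2FC minus that of the neighbours was −0.37 for SREBF1, 0.32 for SQLE, 0.28 for HMGCS1 and 0.29 for FADS2. Minus the median of the 5 nearest on each side, a measure chosen after seeing the data, it was −0.39 for SREBF1, 0.33 for SQLE, 0.35 for HMGCS1, 0.18 for FADS2, 0.02 for FADS1, 0.09 for HSD17B7, 0.08 for SCAP and 0.18 for INSIG1. Without MSMO1, SCAP and INSIG1, 13 of the remaining 29 genes were up-regulated (44.8%, against 13.9% of all genes tested) and 2 were down-regulated (6.90%, against 15.5%), and the median log2FC was 0.11. The shares over all genes tested were not filtered in this way, so they still include genes in such stretches. What moved these stretches was not tested.

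Genes around these routes were taken from 5 lists of 75 genes in all, of which 69 were tested. Of these, 6 were up-regulated (8.70%, against 13.9% of all genes tested) and 14 were down-regulated (20.3%, against 15.5%). Among 11 genes of SREBP processing and INSIG turnover, 2 rose and 2 fell (18.2% each), with a median log2FC of −0.05. MBTPS2, the site-2 protease that releases SREBP from the membrane, was at 84.6 and 90.3 CPM in WT and at 73.7 and 75.9 CPM in Helz-null cells (log2FC −0.22, FDR 1.48e-05). ERLIN1, an endoplasmic reticulum protein that binds the SREBP-SCAP-INSIG complex, also fell (log2FC −0.24, FDR 4.32e-06). Among 10 tested genes of sterol storage, transport and LXR response, LIPA, the lysosomal acid lipase that frees cholesterol from its esters, was the 1 gene called (log2FC 0.20, FDR 1.12e-05), and the median log2FC was −0.0033.

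The isoprenoid branches, which draw farnesyl diphosphate away from sterols, had 4 down-regulated genes of 13 (30.8%, against 15.5% of all genes tested), and the other 9 were not called, with a median log2FC of −0.04. GGPS1, which makes geranylgeranyl diphosphate, was at 80.6 and 82.1 CPM in WT and at 56.8 and 55.7 CPM in Helz-null cells (log2FC −0.53, FDR 4.97e-14). The neighbours of GGPS1 had a median log2FC of −0.46, with 37 of 40 below 0. RABGGTB, a subunit of the Rab prenylating enzyme, had a log2FC of −0.23 (FDR 9.17e-07).

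Of 20 other tested genes of fatty acid synthesis, 3 rose (15%, near the 13.9% of all genes tested) and 6 fell (30%, against 15.5%), with a median log2FC of −0.02. The elongase gene ELOVL7 was at 16.5 and 18.6 CPM in WT and at 13.1 and 11.9 CPM in Helz-null cells (log2FC −0.49, FDR 5.04e-06). ACSL1, which activates long-chain fatty acids, was at 66.5 and 64.98 CPM in WT and at 49.9 and 47.3 CPM in Helz-null cells (log2FC −0.44, FDR 1.08e-10), and 28 of 28 neighbours were below 0, with a median of −0.50. HACD1, a dehydratase of fatty acid elongation, rose (log2FC 0.35, FDR 0.000579). Of 15 genes of fatty acid oxidation 2 fell (13.3%, near the 15.5% of all genes tested) and the other 13 were not called, with a median log2FC of −0.03. The 2 were ETFA, an electron carrier subunit (log2FC −0.39, FDR 1.41e-13), whose 40 neighbours were all below 0 with a median of −0.39, and CPT1A, the entry step of long-chain fatty acids into mitochondria (log2FC −0.27, FDR 0.00238). In all, 4 of the 14 down-regulated related genes had neighbours with a median of −0.1 or less. The same share over all down-regulated genes was not computed, so this count cannot be read as many or few.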

How the data were processed

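RNA-Seq of 2 WT and 2 Helz-null HEK293T libraries (TruSeq, paired-end) was used. Per the labels and the study's methods, the authors used Bowtie2 to filter out ribosomal RNA, TopHat2 to map to hg19 and QuasR to count reads in genes. They deposited raw read counts per gene with a gene width in bases, and the versions, the annotation, the use of strand and the treatment of mates are not given in the sources used here. The deposited comparison table (log2 fold changes, log2 CPM, p-values) served only for its list of 10978 genes, which the authors had selected by FPKM. That table's other values were not used.

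Counts were tested in R 4.3.3 with edgeR 4.0.16 (TMM, glmQLFit and glmQLFTest, genotype as the only term, limma 3.58.1 beneath), with Benjamini-Hochberg adjustment over the 10978 genes and an FDR under 0.005. SE is the absolute log2FC divided by the square root of F. CPM is relative to the sum over tested genes, with TMM factors, and FPKM is this CPM per kilobase of deposited width. Positions came from GENCODE on GRCh37, where 10379 tested genes were matched by symbol, and promoters from RefSeq on GRCh38.p14, where 28 of the 32 genes were matched. DESeq2 1.42.0, other scalings, filters and thresholds, left-out libraries, a replicate block and subtraction of neighbours were alternatives. Simulated data with known changes served to test the fit. Python 3.11.15 and matplotlib 3.10.9 drew the figures.

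Library totals were 41745401 to 70464140 counts, and the gene of the list with the fewest counts, HSD17B7, had 605 to 1335. The members and lists were chosen with earlier results of these data known. Named genes were all 32 members and up to 3 called genes with the largest absolute log2FC in each related list, of which 2 are not reported here. The subtraction of the 5 nearest neighbours and the omission of MSMO1, SCAP and INSIG1 were chosen after seeing the data.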

Additional observations from a re-analysis of the deposited data

How the results depend on the processing

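The 14 up- and 4 down-regulated genes of the list and their median log2FC of 0.11 were recomputed under other settings. Scaling by library size alone gave 2 down-regulated genes and a median of 0.15, and moved the median of all genes to 0.03. Against a fold change of at least 1.2, 2 genes were up- and 1 was down-regulated, with 0 and 3 in the related lists by edgeR's test against that fold (1 up-regulated at an unadjusted p under 0.05, DESeq2 not run against it) and 217 and 318 over all genes. At an FDR under 0.05 the related lists had 11 up-regulated genes, and all genes 2371 up- and 2506 down-regulated. DESeq2 called 10 up- and 4 down-regulated genes of the list, and 1102 and 1288 over all genes. With MSMO1, SCAP and INSIG1 left out, 2 were down-regulated. Leaving out each library in turn gave 10 to 13 up- and 2 to 6 down-regulated genes and medians of 0.11 to 0.13, and 4 to 6 up- and 10 to 12 down-regulated related genes, with 1027 to 1544 up- and 1180 to 1659 down-regulated over all genes. The down-regulated count of the list was 2 without Helz-null replicate 1, 2 without Helz-null replicate 2 and 6 without WT replicate 1. In these refits the lone library was assumed to vary like the other genotype. Of the 18 calls, 10 were kept under every refit other than the fold threshold. SCAP and FASN lost theirs under library size scaling and without either Helz-null library. With the fold threshold counted, MVD and ACAT2 lost theirs in 5 and 7 refits.

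The log2FC changed sign for EBP under library size scaling (0.0297) and upper-quartile scaling (0.0107). With 1 library left out it ran from −0.0304 to 0.0295 for EBP (above 0 without WT replicate 1, at 0.0295, and without Helz-null replicate 2, at 0.00058), from −0.0226 to 0.121 for ACACA (below 0 without WT replicate 1, at −0.0044, and without Helz-null replicate 1) and from −0.0348 to 0.0751 for MVK (below 0 without Helz-null replicate 1). With the neighbours' median subtracted, the sign turned for MVK (−0.0272) and SCAP (0.134), and with that of the 5 nearest on each side for MVK (−0.0066), EBP (0.0684), SCAP (0.0813) and SCD (0.0198). The causes were not tested. With the replicate number as a block, 17 genes were up- and 5 were down-regulated, with a median of 0.11, with 6 and 15 in the related lists and 1677 and 1841 over all genes. The deviations of same-numbered libraries had a correlation of 0.034 over genes. The sources do not say whether these libraries shared a culture day or a preparation, and this value cannot decide it.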
